A study of Mus musculus with 16 samples.

Results

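RNA from 2 sort fractions of the same mouse olfactory mucosa was compared after exposure to undecanal, a fatty aldehyde odorant. The 8 arrays were those of the undecanal-exposed mice whose titles read GFP+ (4 arrays) or GFP- (4 arrays), out of 16 in the series, and same-numbered arrays were paired as the fractions of 1 pool of 3 mice. Every group consisted of C57BL/6 mice, male and female and aged 7 to 12 weeks, in which the S100a5 gene drives tauGFP, a tau-linked green fluorescent protein (GFP). The 24 mice of the series were held one per chamber in clean air for 40 h at 3.1 L/min, and from 26 h on received either undecanal or, as vehicle, filtered air for 10 s every 20 min. The mucosa was then dissociated and sorted on GFP, and 50 to 100 ng of RNA was labelled for Clariom S arrays. The other 8 arrays are the 2 fractions of 4 vehicle pools, which are set beside the undecanal pools where stated. A sort fraction of dissociated mucosa is a mixture of cells, so for every gene below fewer cells of a type and less RNA per cell cannot be told apart.

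Olfactory sensory neurons detect odorants through odorant receptors, and each mature neuron expresses mainly 1 receptor gene. Receptor binding opens a cyclic nucleotide-gated channel through the G protein Gnal and adenylyl cyclase Adcy3, and repeated activity changes the transcription of a small set of genes, of which S100a5, a calcium-binding protein, is used here to drive the reporter. Besides these neurons the mucosa holds their progenitors, supporting cells, glands, microvillar cells and blood-derived cells.

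S100a5 ran against the titles. Its log2 level in pools 1 to 4 was 15.96, 15.62, 15.74 and 15.75 in arrays titled GFP+ and 17.06, 16.94, 16.49 and 16.45 in arrays titled GFP-. The groups did not overlap, and the arrays titled GFP- were the higher in all 4 pools. Subtracting the array titled GFP- from its partner gave -0.97 log2 units (SE 0.152, limma adjusted p = 0.00111), a 1.96-fold lower level in arrays titled GFP+. The sample characteristics carry the opposite GFP sign to the title in 16 of 16 samples, and S100a5 goes with the characteristics. All differences below are titled GFP+ minus titled GFP-, and each would change sign if the characteristics are right.

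**Figure D1:**
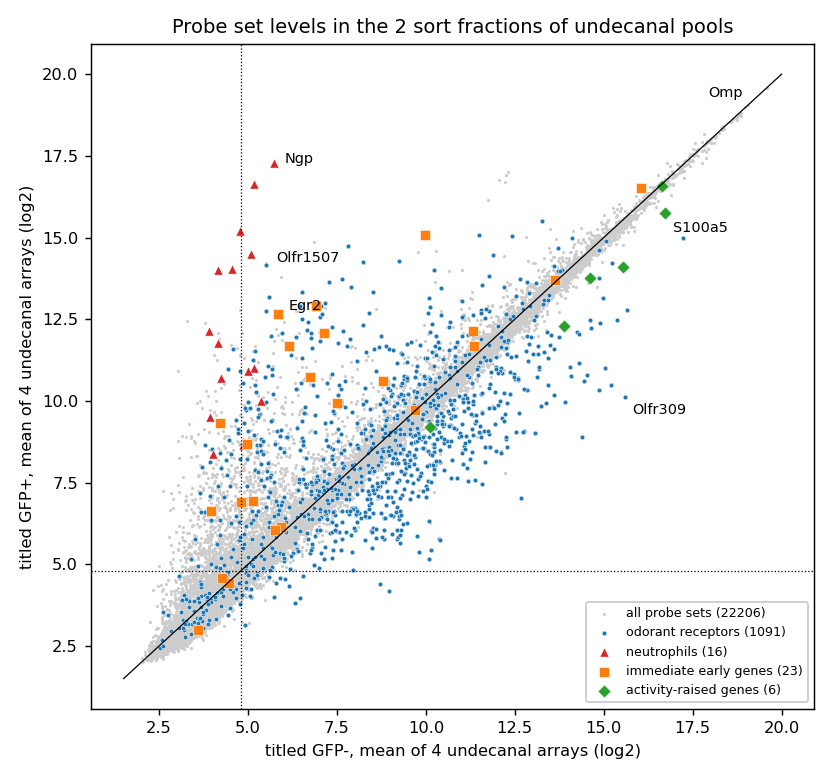
Mean log2 level of each of 22206 probe sets over the 4 undecanal arrays titled GFP- (horizontal axis) and the 4 titled GFP+ (vertical axis), with 3 gene lists and the odorant receptors marked, the line of equal level drawn solid and the background level dotted. The 16 neutrophil genes lie above the line, 5 of 6 activity-raised genes (S100a5 among them) lie below it by the test, and receptors lie far from it on both sides.

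Across the 22206 probe sets, 2065 were higher in the arrays titled GFP+ (9.3%) and 1194 lower (5.38%) by limma at an adjusted p under 0.05, and 3201 of these 3259 had the same sign in all 4 pools. The shares of 9.3% and 5.38% are those to set beside every list count below. Without undecanal pool 1 the lower calls numbered 716. Over every probe set the median difference came to -0.11. The balance of the calls depended on scaling. Of all calls 63.4% were higher in the deposited values, 11.7% with each array centred on its median (1639 higher, 12348 lower), 48.1% after quantile normalization and 84.2% with arrays centred on mature neuron genes, and the median difference moved to -0.46 with median centring and 0.12 with mature neuron centring. Large differences were split unevenly between receptors and other genes. Beyond 2 log2 units, 175 receptors were higher and 164 lower, while among the other probe sets 555 were higher and 9 lower. Within groups the correlation between arrays was 0.989 to 0.993, no array stood apart, and the counts of probe sets more than 1 log2 unit higher ran from 1433 to 1862 over the 4 pools. A probe set under log2 4.80, the 95th percentile of 358 vomeronasal and bitter taste receptor probe sets, is called below background.

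Genes known to rise with activity in olfactory neurons were lower in the arrays titled GFP+. Of the 6 measured, 5 fell and 0 rose, with a median of -0.94. S100a5, which drives the sorted reporter and is described above, is 1 of the 5 and enters the median. The choice of this list rests on the same question as the reporter, and earlier results of these arrays were known when it was made. Lrrc3b, a leucine-rich repeat protein, was at 11.93, 12.37, 12.57 and 12.29 in arrays titled GFP+ and at 13.80, 13.89, 14.06 and 13.78 in those titled GFP-. The fractions did not overlap and differed by -1.59 (SE 0.14, limma adjusted p = 1.32e-05). Pcp4l1, a small calmodulin-binding protein relative, was at 14.08, 14.39, 13.62 and 14.33 against 15.93, 15.95, 14.89 and 15.36. Its difference was -1.43 (SE 0.171, limma adjusted p = 1.54e-04), again without overlap. The protocadherin Pcdh10 (-0.90, SE 0.182) and the adhesion molecule Kirrel2 (-0.85, SE 0.125, limma adjusted p = 7.19e-04) also fell, both without overlap between fractions. Kirrel2 did not pass without the replicate block (limma adjusted p = 0.136). The sixth gene, the adhesion molecule Cntn4, differed by -0.06 (limma adjusted p = 0.775) and passed as lower with median centring alone among the scalings.

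The mature neuron program itself differed little. Omp, the olfactory marker protein of mature neurons, was at 18.86, 18.78, 18.83 and 18.74 in arrays titled GFP+ and at 18.95, 18.83, 18.83 and 18.78 in those titled GFP-. These groups overlapped and differed by -0.05 (SE 0.114, limma adjusted p = 0.837). With median centring Omp passed as lower at -0.40 (limma adjusted p = 0.0144), so its direction rests on the scaling. Of 19 mature neuron genes 0 rose and 3 fell (15.8%, beside 5.38% of all probe sets), with a median of -0.17. The 3 were the phosphodiesterase Pde1c (-0.52), the apoptosis inhibitor Faim2 (-0.48) and the calcium-activated chloride channel Ano2 (-0.42). None of the 3 calls was made without undecanal pool 1 or without pool 2, and Ano2 was not called either with undecanal pool 3 or 4 left out or with vehicle pool 3 or 4 left out, nor Faim2 without undecanal pool 3 (limma adjusted p up to 0.0894 for Pde1c, 0.132 for Faim2 and 0.116 for Ano2). By contrast all 19 genes passed as lower with median centring. The transduction genes Gnal (-0.06), Adcy3 (-0.17) and Cnga2 (-0.23) did not pass. The list's log2 summed level ran from 21.76 to 21.89 in arrays titled GFP+ and from 21.92 to 22.01 in those titled GFP-.

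Axon sorting genes, which guide olfactory axons to their targets, had 6 lower (40%) and 1 higher (6.67%) of 15, beside 5.38% and 9.3% of all probe sets. Their median was -0.29, and 12 were lower with median centring. Pcdh10 and Kirrel2, the lowest of the 6, are also among the activity-raised genes above. The ephrin receptor Epha5 (-0.79, SE 0.147) and the semaphorin receptor subunit Plxna3 (-0.77, SE 0.151) were the lowest after Pcdh10 and Kirrel2, and the guidance ligands Slit1 (-0.59) and Sema7a (-0.45) were the others. Sema7a was not called without any 1 of the pools except undecanal pool 4 (limma adjusted p up to 0.180). The repulsive ligand Sema3a was the 1 higher (0.75, limma adjusted p = 0.0384), and it was not called with undecanal pool 1, 3 or 4 left out or with vehicle pool 3 or 4 left out (up to 0.174), nor with median centring, after quantile normalization or from the undecanal arrays alone. Of 6 zone markers, which mark dorsal or ventral neurons, 0 passed in either direction, and 4 were called lower with median centring. Among 14 genes of receptor choice and trafficking, Lbr, the lamin B receptor, rose by 0.99 (SE 0.156, limma adjusted p = 0.00109) and 0 fell, though 12 fell with median centring. That 1 higher gene is 7.14% of the list, under the 9.3% of all probe sets. The choice factors Lhx2 (0.01), Ldb1 (0.01) and Ebf1 (-0.05) and the trafficking protein Rtp1 (0.00) did not pass.

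Among genes with a symbol, Fxyd2 had the lowest difference outside the odorant receptors. Fxyd2, a regulatory subunit of the sodium-potassium ATPase, was at 7.39, 6.60, 7.20 and 7.62 in arrays titled GFP+ and at 10.29, 9.81, 9.77 and 11.01 in those titled GFP-. Its fractions did not overlap, and the level was 8.09-fold lower (difference -3.02, SE 0.189, limma adjusted p = 9.83e-07). Avp, the vasopressin precursor, was lower by 3.84-fold (-1.94, SE 0.206), the potassium channel subunit Kcng1 by 2.73-fold (-1.45, SE 0.166) and the secretory granule protein Ptprn by 2.66-fold (-1.41, SE 0.131). Pde10a, a cyclic nucleotide phosphodiesterase, was lower by 2.83-fold (SE 0.211 on the log2 scale). Nell2, a secreted glycoprotein, was at least 1.59-fold lower and Gm5901 at least 1.18-fold lower, both with the arrays titled GFP+ below background.

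**Figure D2:**
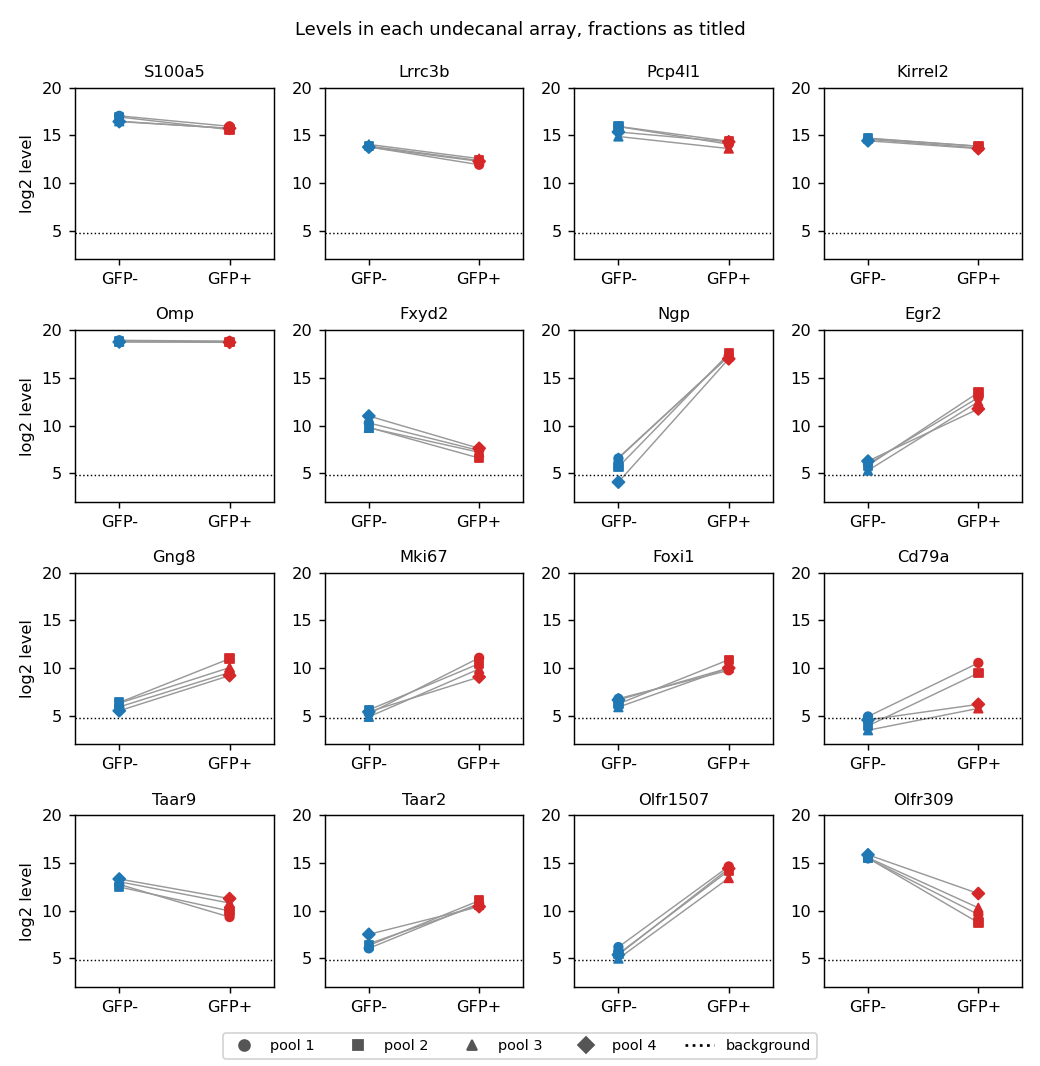
Log2 level of 16 genes in every undecanal array, titled GFP- on the left and titled GFP+ on the right of each panel, with a line joining the 2 fractions of a pool and the background level dotted. S100a5, Lrrc3b, Pcp4l1, Kirrel2, Fxyd2, Taar9 and Olfr309 step down in all 4 pools, Omp is level, and the other 8 genes step up, with Cd79a spread widest in the arrays titled GFP+.

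Odorant receptors moved in both directions. Of 1091 receptor probe sets, 285 were higher (26.1%) and 390 lower (35.7%) by limma, beside 9.3% and 5.38% of all probe sets, and 416 were not called. Their median difference was -0.24, as was that of the 358 vomeronasal and bitter taste receptor probe sets that set the background level. The lower calls outnumbered the higher with the deposited values, median centring (260 higher, 537 lower), quantile normalization (279 and 416) and mature neuron centring (330 and 351). Of the 1091, 1006 were above background in an undecanal group. The dimmer fraction was below background for 45 of the higher and 19 of the lower calls. Their folds are lower limits where the brighter fraction was above background. Some of these receptors, such as Olfr1535, were below it in both fractions and have no fold. Probe sets of close paralogs can share signal, which makes single receptors uncertain where sequences are near identical.

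The highest receptor was Olfr1507, at 14.64, 14.19, 13.42 and 14.42 in arrays titled GFP+ and at 6.18, 5.47, 4.97 and 5.37 in those titled GFP-. Every array titled GFP+ was above every other, and the level was 406-fold higher (difference 8.67, SE 0.209, limma adjusted p = 3.31e-09). Olfr1213 followed at 7.59 (SE 0.416), with 13.32, 13.22, 13.01 and 13.14 against 6.60, 6.17, 4.75 and 4.81. Olfr390 (7.26), Olfr1297 (6.92), Olfr1384 (6.79) and Olfr460 (6.63) also rose without overlap between fractions. Olfr231 was at least 112-fold and Olfr1178 at least 72.0-fold higher, both below background in arrays titled GFP-. Arrays titled GFP+ of these 8 receptors lay between 10.69 and 14.98.

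Among the lower receptors Olfr110 differed most, at 5.87, 6.91, 7.66 and 7.67 in arrays titled GFP+ and at 11.92, 12.84, 12.65 and 13.29 in those titled GFP-. It was 50.1-fold lower (difference -5.65, SE 0.175, limma adjusted p = 1.07e-08). Olfr536 was at 8.25, 7.88, 9.39 and 10.07 against 14.16, 13.97, 14.23 and 15.24, a difference of -5.50 (SE 0.243). Olfr309 was at 15.48, 15.52, 15.56 and 15.86 in the arrays titled GFP- and at 9.60, 8.74, 10.30 and 11.80 in those titled GFP+ (difference -5.50, SE 0.456). Its arrays titled GFP+ spread over more than 3 log2 units while the 4 titled GFP- lay close together. Olfr481 (-4.92), Olfr1093 (-4.73), Olfr522 (-4.73) and Olfr372 (-4.66) fell without overlap, and Olfr613 was at least 17.8-fold lower. Beyond 4 log2 units, 73 receptors were higher and 15 lower.

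Calls were spread unevenly over the 17 chromosomes that carry these receptors. On chromosome 10, 27 of 65 were higher and 9 lower, on chromosome 6, 10 of 27 were higher and 1 lower, and on chromosome 17, 20 of 49 were higher and 11 lower. The reverse was seen on chromosome 16 (5 higher, 20 lower of 36), chromosome 14 (7 and 20 of 39) and chromosome 9 (25 and 61 of 132). Over all 1091 receptors 26.1% were higher and 35.7% lower. The largest group, on chromosome 2 (76 and 107 of 284, or 26.8% and 37.7%), lay near these shares. Chromosome 7 (46 and 85 of 232) had 19.8% higher and 36.6% lower. The chromosome 17 count turned to 16 higher and 20 lower with median centring, while those of chromosomes 6, 9, 10, 14 and 16 kept their direction under each scaling. No test was made of these counts.

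**Figure D3:**
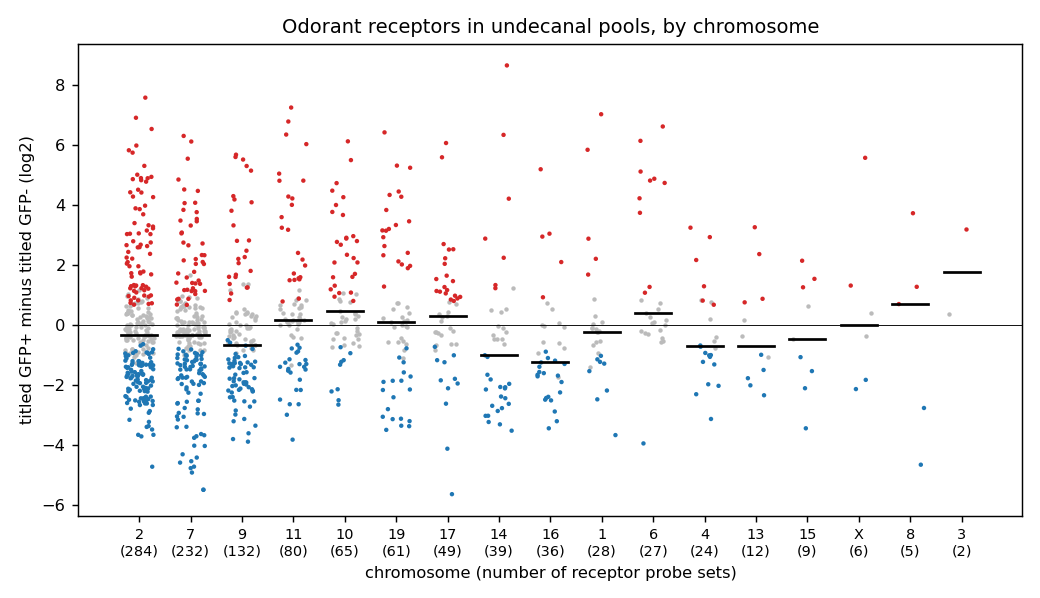
Difference between fractions (titled GFP+ minus titled GFP-, log2) of each odorant receptor probe set, grouped by chromosome with the number of probe sets in parentheses; red points are called higher, blue lower and grey not called, and black bars are medians. Chromosomes 10 and 6 have medians of 0.48 and 0.39, and chromosomes 16 and 14 medians of -1.22 and -1.01.

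Receptors that are neighbours on a chromosome often shared a direction. Of 1074 neighbouring pairs, 419 had both members called, and 277 of these (66.1%) went the same way, beside 51.1% of all possible pairs of called receptors. With median centring the shares were 67.4% and 56.0%, and with mature neuron centring 64.9% and 50.0%. The other 142 pairs went opposite ways. On chromosome 17, Olfr99 (6.08) lies next to Olfr101 (-4.13), and on chromosome 19, Olfr1447 (6.43) next to Olfr1448 (-3.21). On chromosome 11, Olfr393 (6.04) and its neighbour Olfr392 (4.82) rose together. These examples and the share for neighbours are descriptions, chosen after the values were seen. Signal shared between probe sets of close paralogs and the uneven counts by chromosome can both enter the neighbour share. Their part in it was not tested. Olfr1506 and Olfr1565, for example, have identical values and are counted as separate receptors.

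Homeodomain factors such as Lhx2 bind TAATTA-like sites in receptor promoters. The letters TAATTA (either strand) occurred in the RefSeq promoter window (250 bases before to 50 after the start, GRCm38.p6) of 48 of 237 higher receptors (20.3%), 62 of 337 lower receptors (18.4%) and 61 of 351 not called (17.4%), beside 6.12% of all 27025 genes with a window. The search was added after the receptor calls were seen, and a match is letters only.

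Trace amine-associated receptors, which detect volatile amines in their own class of olfactory neurons, also split. Of 15 measured, 5 rose (33.3%) and 4 fell (26.7%), beside 9.3% and 5.38% of all probe sets, with a median of -0.08. Taar9 was at 9.33, 9.96, 10.80 and 11.27 in arrays titled GFP+ and at 12.76, 12.49, 13.04 and 13.32 in those titled GFP-, a difference of -2.56 (SE 0.26, limma adjusted p = 4.09e-05) without overlap. Taar4 (-2.54, SE 0.272), Taar3 (-2.01, SE 0.289) and Taar7e (-0.84) fell as well, the last not called without undecanal pool 1 or 3 (limma adjusted p up to 0.149). Taar2 rose by 4.10 and Taar7a by 2.50, and Taar6 (2.09), Taar7f (2.05) and Taar7d (1.45) were the other 3 that rose. With median centring 7 of the 15 were called lower.

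Many genes of immature neurons, their progenitors and dividing cells were higher in the arrays titled GFP+. Of 14 immature neuron genes 7 rose and 0 fell (median 0.91), of 10 progenitor genes 6 rose and 0 fell (median 1.10), and of 17 cell cycle genes 15 rose and 0 fell (median 1.88). With median centring 1 immature neuron gene and 2 progenitor genes fell. Gng8, a G protein subunit of immature olfactory neurons, was at 9.55, 10.99, 10.06 and 9.22 in arrays titled GFP+ and at 5.93, 6.39, 6.33 and 5.53 in those titled GFP-. It was 15.0-fold higher (difference 3.91, SE 0.264, limma adjusted p = 1.73e-06) and did not overlap. Dpysl3 (3.76), Tex15 (3.67), the growth cone protein Gap43 (2.36) and Stmn1 (2.05) rose with it, while Stmn2 (0.31), Dbn1 (0.27) and Tubb3 (-0.03) did not pass. The transcription factor Nhlh1 was at least 21.5-fold higher, and Insm1 at least 2.07-fold, while Neurog1 passed (1.13) with both fractions below background. Mki67, a marker of dividing cells, was at 11.09, 10.47, 9.92 and 9.07 against 5.22, 5.61, 4.89 and 5.42 (difference 4.85, SE 0.283, limma adjusted p = 5.99e-07). Blood cell precursors divide too, and genes of blood-derived cells rose in the same arrays, as described below; their part in the cell cycle counts was not tested. Cxcr4, on the immature neuron list and also made by leukocytes, was at least 51.5-fold higher.

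Supporting and secretory cells of the epithelium followed. Of 11 sustentacular genes 5 rose and 0 fell (median 0.74), led by the sulfotransferase Sult1c1 (2.78, SE 0.188) and the cytochromes P450 Cyp2a5 (2.23, SE 0.2), Cyp1a2 (2.15, SE 0.138) and Cyp2g1 (1.79, SE 0.188). Of 7 Bowman gland genes 5 rose and 0 fell (median 1.30), and 1 fell with median centring. The largest of these, Ltf (lactoferrin, at least 254-fold higher), is also a neutrophil granule protein, while the transcription factor Sox9 was 17.7-fold higher (4.15, SE 0.208). Among 9 horizontal basal cell genes, the reserve stem cells of the epithelium, Cd44 rose (3.74, SE 0.275) and Trp63 was lower (-0.55) but below background in both fractions and not called with undecanal pool 1, 2 or 3 left out or with vehicle pool 1 or 3 left out (limma adjusted p up to 0.177). Krt5 (-0.38) and Krt14 (-0.01), which define these cells, lay below background and did not pass. Cd44 is also carried by leukocytes. The 1 higher and the 1 lower gene are each 11.1% of this list, beside 9.3% and 5.38% of all probe sets. With median centring 3 of the 9 fell, and with mature neuron centring 2 rose.

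Most listed genes of microvillar cells, rare epithelial cells with apical microvilli, were higher in the arrays titled GFP+. Of 12 genes of the tuft-like kind, which share a signalling pathway with taste cells, 11 rose and 0 fell (median 2.00). Trpm5, their cation channel, was at 8.66, 8.60, 7.55 and 8.15 in arrays titled GFP+ and at 4.41, 4.79, 5.58 and 3.62 in those titled GFP-, at least 10.9-fold higher (limma adjusted p = 5.59e-05). The lineage factor Pou2f3 (2.30) rose as well, and the cytokine Il25 was at least 3.43-fold and the taste G protein Gnat3 at least 1.56-fold higher, both below background in arrays titled GFP-. The largest difference on the tuft-like list was that of Alox5 (4.35), also below background there. Of the 12 genes, 9 were below background in arrays titled GFP-, and 2 were called higher when both groups had to be above it. Of 8 genes of the ionocyte-like kind, which move ions across the epithelium, 7 rose and 0 fell (median 2.91). Their transcription factor Foxi1 was at 9.78, 10.88, 10.01 and 10.01 against 6.80, 6.25, 5.91 and 6.67, a 13.6-fold difference (3.76, SE 0.33, limma adjusted p = 1.34e-05), and the chloride channel Cftr (3.40, SE 0.199) and Coch (2.98) rose too, and the transcription factor Ascl3 was at least 6.29-fold higher. With median centring 1 of the 8 fell, and 4 were called higher when both groups had to be above background.

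**Figure D4:**
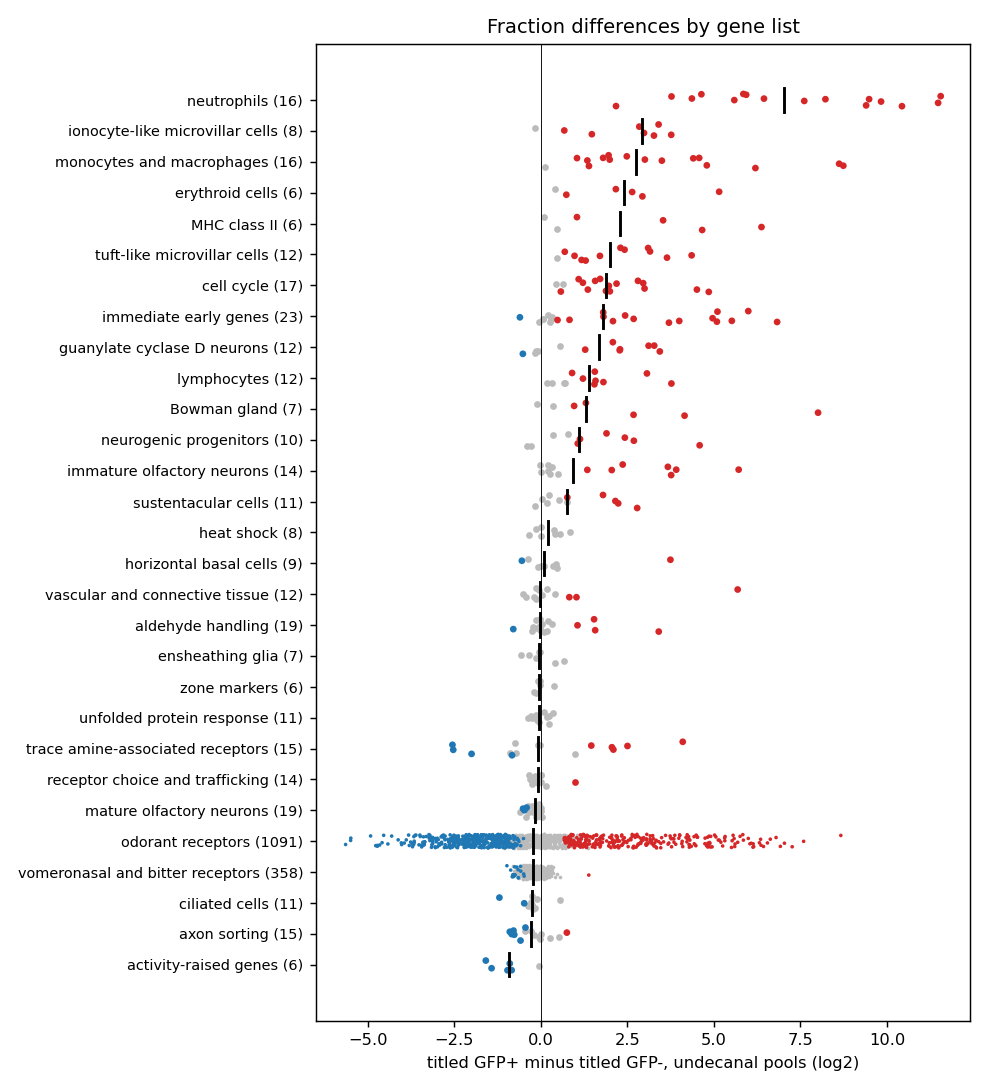
Difference between fractions (titled GFP+ minus titled GFP-, log2, undecanal pools) of every probe set on 26 gene lists and 3 receptor families, with the number measured in parentheses; red points are called higher, blue lower and grey not called, and black bars are medians. Neutrophil genes have the highest median, 7.03, and activity-raised genes, S100a5 among them, the lowest, -0.94.

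Blood-derived cells gave the highest values of all. All 16 neutrophil genes were higher (median 7.03), as were 15 of 16 monocyte and macrophage genes (median 2.74), 8 of 12 lymphocyte genes (median 1.38), 4 of 6 genes of MHC class II (median 2.28) and 5 of 6 erythroid genes (median 2.40). Ngp, a neutrophil granule protein, was at 17.32, 17.54, 17.28 and 17.01 in arrays titled GFP+ and at 6.56, 5.67, 6.64 and 4.07 in those titled GFP-. It was 3003-fold higher (difference 11.55, SE 0.385, limma adjusted p = 1.68e-08), the largest difference among the named genes. Lcn2 (11.48, SE 0.36) came next, then Retnlg, also on the neutrophil list, at least 1344-fold higher. S100a8 and S100a9, calcium-binding proteins of neutrophils, were at least 585-fold and at least 605-fold higher. Chil3 (9.40, SE 0.28) and the myeloid factor Spi1 (7.89, SE 0.362) were among the other genes that rose. The summed neutrophil level, as log2, ran from 18.10 to 18.75 in arrays titled GFP+ and from 8.69 to 9.10 in those titled GFP-.

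B cell genes differed between pools. Cd79a, part of the B cell receptor, was at 10.55, 9.47, 5.78 and 6.21 in arrays titled GFP+ and at 4.93, 3.95, 3.49 and 4.57 in those titled GFP-. Pools 1 and 2 of the arrays titled GFP+ were more than 3 log2 units above pools 3 and 4, and the fractions still did not overlap. The arrays titled GFP- were below background, and the level was at least 9.20-fold higher (limma adjusted p = 0.0034). Cd79b showed 9.77, 8.41, 6.27 and 5.96 against 5.29, 4.50, 4.14 and 4.24. Car1, an erythroid carbonic anhydrase, had 10.49, 9.48, 7.89 and 8.30 against 4.26, 3.22, 3.75 and 4.34, and H2-Aa, an MHC class II chain, 12.58, 11.79, 10.70 and 11.02 against 5.20, 4.66, 5.35 and 5.39. In these 4 genes pools 1 and 2 were the highest of the arrays titled GFP+, while the T cell gene Cd3e was at 5.59, 7.06, 5.49 and 4.89 there, with pool 2 alone standing high. Of 12 vascular and connective tissue genes 3 rose, namely the pericyte gene Rgs5 (5.68, SE 0.266), Dcn (1.03) and Pecam1, at least 1.19-fold higher with arrays titled GFP- below background (limma adjusted p = 0.0592 without undecanal pool 1), and the endothelial genes Cdh5 (-0.06) and Cldn5 (0.02) lay below background and did not pass. The 3 that rose are 25% of this list, beside 9.3% of all probe sets. With median centring 2 of the 12 fell, and 1 after quantile normalization. Of 7 genes of ensheathing glia 0 passed, though 2 passed as higher with mature neuron centring and 2 as lower with median centring. Of 11 genes of ciliated cells 2 fell (18.2%, beside 5.38% of all probe sets), Deup1 (-1.20, SE 0.254) and Ccno (-0.48). With median centring 9 of the 11 fell, and with mature neuron centring 1 fell and 1 rose. Ccno was not called when any 1 undecanal pool, or vehicle pool 3 or 4, was left out (limma adjusted p up to 0.130).

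Immediate early genes, which are transcribed within minutes of many stimuli and of cell handling, were mostly higher in the arrays titled GFP+. Of 23, 15 rose (65.2%) and 1 fell (4.35%), beside 9.3% and 5.38% of all probe sets, with a median of 1.81. Egr2, a zinc finger transcription factor, was at 12.94, 13.48, 12.50 and 11.75 in arrays titled GFP+ and at 5.98, 5.82, 5.29 and 6.28 in those titled GFP-. It was 113-fold higher without overlap (difference 6.82, SE 0.285, limma adjusted p = 5.77e-08). Egr1 (5.99, SE 0.278), the antiproliferative gene Btg2 (5.52, SE 0.289), Fos (5.08) and Fosb (4.96) rose in the same way, and Ier3 was at least 22.8-fold higher. Others changed less or did not pass. Jun rose by 0.82 (limma adjusted p = 0.0584 without undecanal pool 2) and Dusp1 by 0.48 (up to 0.122 without undecanal pool 1, 2 or 3), while Egr3 (0.27), Arc (0.30), Ier2 (0.32) and Jund (0.07) did not pass, and Npas4, a gene known for dependence on neuronal calcium, was lower (-0.61) with both fractions below background and was called in only 1 of the 8 fits that left out a pool (limma adjusted p up to 0.174). The markers of blood-derived cells moved with this group, with the neutrophil sums given above and monocyte and macrophage sums of 13.95 to 15.25 in arrays titled GFP+ against 8.50 to 8.96. Their part in the result was not tested.

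The RefSeq promoter windows (GRCm38.p6, 250 bases before to 50 after the start, 5′ to 3′ on the gene's strand) of Egr2 and Btg2, which rose most among immediate early genes with a window, are shown because each holds letters of a site through which such genes are known to be switched on. Capitals mark a CArG box, the serum response factor site, in Egr2 (chr10:67537316-67537615, plus strand) and a cyclic AMP response element, TGACGTCA, in Btg2 (chr1:134079106-134079405, minus strand).
Egr2: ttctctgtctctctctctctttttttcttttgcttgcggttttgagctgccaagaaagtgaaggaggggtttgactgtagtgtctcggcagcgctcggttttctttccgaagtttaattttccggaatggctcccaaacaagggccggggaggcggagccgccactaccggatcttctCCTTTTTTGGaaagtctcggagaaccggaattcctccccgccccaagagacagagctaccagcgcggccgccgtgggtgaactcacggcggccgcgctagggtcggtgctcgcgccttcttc
Btg2: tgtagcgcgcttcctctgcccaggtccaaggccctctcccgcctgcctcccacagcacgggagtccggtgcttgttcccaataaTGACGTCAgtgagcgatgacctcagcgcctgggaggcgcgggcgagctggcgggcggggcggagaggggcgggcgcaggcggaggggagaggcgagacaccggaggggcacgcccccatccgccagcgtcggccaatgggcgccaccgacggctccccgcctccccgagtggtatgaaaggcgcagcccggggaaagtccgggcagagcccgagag
For Egr2 the table held 5 start sites, and the window with the most matches is shown. Both motifs were searched on both strands. Of all 27025 genes with a window 1.81% held a CArG box and 2.03% a TGACGTCA (1.63% and 1.79% of the 32851 windows). Among 14 higher immediate early genes with a window, 1 held a CArG box (Egr2) and 2 a TGACGTCA (Btg2 and Dusp1), and the window of Ier3 held neither.

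Genes of guanylate cyclase D neurons, a small population outside the canonical pathway, had 7 higher (58.3%) and 1 lower (8.33%) of 12, beside 9.3% and 5.38% of all probe sets. Their median was 1.68, and 4 were lower with median centring. The 7 were Pde2a (3.43, SE 0.202) and 6 Ms4a family members, and some members of that family are also expressed in leukocytes. The lower gene was Ms4a5 (-0.52), below background in both fractions and not called with undecanal pool 1, 3 or 4 left out or with vehicle pool 1 or 2 left out (limma adjusted p up to 0.145). Gucy2d (-0.14) and Cnga3 (-0.09), which define these neurons, were below background and did not pass. Of 8 heat shock genes 0 passed, with Dnajb1 at 0.38 (limma adjusted p = 0.15), and of 11 genes of the unfolded protein response 0 passed, with Xbp1 at 0.34 (limma adjusted p = 0.132). These counts moved with the scaling. Of the heat shock genes 1 (Dnajb1, 0.61) passed as higher with mature neuron centring, 2 as lower with median centring and 1 as lower after quantile normalization, with Bag3 at -0.71 and -0.70 in the latter pair. Of the unfolded protein response genes 6 passed as lower with median centring and 2 as higher with mature neuron centring, where Xbp1 was at 0.57. Genes that handle aldehydes, the chemical class of undecanal, had 4 higher (21.1%) and 1 lower (5.26%) of 19, beside 9.3% and 5.38% of all probe sets. Their median was -0.02. With median centring 5 were lower and the median was -0.38. Aldh2, mitochondrial aldehyde dehydrogenase, was at 14.06, 13.78, 13.54 and 13.22 against 10.76, 9.95, 10.53 and 9.75, a 10.6-fold difference (3.40, SE 0.204, limma adjusted p = 7.27e-07). In vehicle pools, without undecanal, the Aldh2 difference was 3.49. Aldh1a1 (1.57) and Adh1 (1.06) rose, Aldh9a1 was at least 2.00-fold higher with arrays titled GFP- below background, and Aldh5a1 was lower (-0.80). Adh1 was not called without undecanal pool 1, 2 or 4 (limma adjusted p up to 0.136), nor Aldh5a1 without undecanal pool 1 (0.0670).

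The same fractions of vehicle pools gave much the same picture for receptors and for the higher calls among other probe sets. The 2 agents share no array. Both differences come from 1 fit and share each probe set's estimate of spread, so the 2 sets of calls are not independent. Of the 285 receptors higher in undecanal pools 249 (87.4%) were also higher in vehicle pools, which is 91.5% of the 272 called there, and of the 390 lower 372 (95.4%) were lower there, 88.2% of 422. Among other probe sets 1508 were higher in both (84.7% of 1780 and 82.8% of 1821), and 335 were lower in both (41.7% of 804 and 33.9% of 988). Differences in vehicle pools were -0.91 for S100a5, 10.86 for Ngp, 6.62 for Egr2, 8.35 for Olfr1507 and -5.47 for Olfr110. The change of the fraction difference between agents passed for 0 of 22206 probe sets (0%) by limma, with 860 at an unadjusted p under 0.05, and for 0 without the replicate block, with 584. Both 860 and 584 are under the share of 0.05 of the probe sets that chance alone would give at that threshold. The smallest unadjusted p values included Cd44, at 3.74 in undecanal and 6.06 in vehicle pools, and Olfr1535, called in opposite directions in the 2 agents (0.76 and -0.73). The Olfr1535 means were below background in both fractions of both agents (titled GFP+ and GFP-, 3.91 and 3.15 with undecanal, 3.50 and 4.23 with vehicle). Its undecanal call was lost without undecanal pool 3 or 4 (limma adjusted p up to 0.104). Neither change passed the adjustment.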

How the data were processed

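The authors deposited log2 values per probe set, and the submitters' processing notes name Affymetrix Expression Console. Its algorithm, version and annotation build were not given in the sources used here. Of 28846 rows, 6640 control rows were left out. All 19572 probe sets with 1 gene matched RefSeq (GRCm38.p6) by gene identifier, 2634 had none, and for 55 genes with several the brightest on average was used. limma 3.58.1 in R 4.3.3 (lmFit, eBayes, two-sided, Benjamini-Hochberg over 22206 probe sets) was fitted to all 16 arrays with pool as a fixed block and fraction within agent, and was tested on simulated data. The pairing comes from the labels, in which 24 mice pooled by 3 give 8 pools of 2 fractions. Paired deviations from group means correlated with r from 0.0502 to 0.271, and all 8 pools matched best with their own number. A fold is the bright mean over the dim mean, or over the background level ("at least") where the dim group is below it. Only the pools are replicates.

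Named genes were the 12 highest and 12 lowest non-receptor and the 8 highest and 8 lowest receptor differences that passed, moved the same way in 4 pools and had the higher group mean above background, up to 4 passing members of each list by size (otherwise the 2 smallest p), S100a5, Omp, Pcdh10 and Kirrel2, and the 5 smallest p for the change between agents; other list members named were chosen after their values were seen. Members and lists were chosen with earlier results of these data known. A comparison by protein identity was not run. Alternatives covered the block, scaling, filters, prior, array weights, adjustment and left-out pools.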

Additional observations from a re-analysis of the deposited data

Results flagged for a closer look

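Among 244 groups of 4 arrays of the named genes, 10 had 1 array far from the other 3 by Dixon's ratio, where chance gives about 1 in 20. Of arrays titled GFP+, pool 4 stood low for S100a8 (13.20) and for Chac1 (3.10) and high for Olfr613 (4.99), pool 3 stood high for Nell2 (4.41), pool 2 high for Dpysl3 (12.45), and pool 1 high for Sult1c1 (11.94) and Cyp2g1 (15.98). Of arrays titled GFP-, pool 1 stood high for Ly6e (7.72) and low for Epha5 (10.77), and pool 4 low for Olfr1384 (5.22).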

How the results depend on the processing

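Fits without the replicate block called 1960 probe sets higher and 969 lower (264 and 367 receptors), and the 8 undecanal arrays alone with the block 1873 and 869 (276 and 377). Lower calls over all probe sets were 12348 with median centring, 2096 after quantile normalization and 555 with mature neuron centring, and the left-out pools gave 716 to 1165, lowest without undecanal pool 1. Requiring both groups above background left 1226 higher calls. Holm adjustment left 553 higher and 141 lower, 115 and 131 receptors, and S100a5 at -0.97 did not pass it (adjusted p = 1.00). Of 111 passing named genes 72 were called in every alternative that gave them a value. Genes that did not pass changed sign for Ncam2 (0.018), Omp (0.18) and Krt36 (0.16) with mature neuron centring, Xbp1 (-0.016) and Prl3d3 (-0.27) with median centring, and Krt36 without undecanal pool 1 (left-out pools gave -0.186 to 0.093); the cause was not tested. The background level was 13.05 over the negative control rows, which would put most genes below it. The number of arrays, and the background level for dim probe sets, limit the precision.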
